A study of Homo sapiens with 18 samples.

Results

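The genes described here are 10 that write, place, read or erase methylation of lysine 27 of histone H3, namely EZH2, EZH1, SUZ12, EED, JARID2, MTF2, PHF19, BMI1, CBX2 and KDM6B, out of 19970 protein-coding genes in the annotation. The rule that defines them names genes by function and uses no measured value, although the list was drawn up with earlier results of these data known. Each gene was read at the intervals of the count files that overlap 2 kb on either side of one of its transcription start sites (TSS) in GENCODE release 44 on hg38, and for each histone mark the interval with the highest mean count over the 4 libraries represents the gene. All 10 genes had at least 1 such interval for H3K4me3 and H3K27ac, 7 had one for H3K4me1 and 1 had one for H3K27me3.

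Polycomb repressive complex 2 (PRC2) adds methyl groups to lysine 27 of histone H3 through EZH2 or EZH1, and needs SUZ12 and EED to do so, with EED binding the finished mark. JARID2, MTF2 and PHF19 are accessory subunits that bring PRC2 to its sites, often at unmethylated CpG islands. Polycomb repressive complex 1 (PRC1), to which BMI1 belongs, recognises the mark through chromodomain proteins such as CBX2 and ubiquitinates histone H2A, while KDM6B removes the methyl groups. In blood cells this system holds developmental genes silent, and BMI1 and EZH2 are known for their part in the self-renewal of leukemic cells.

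Cut&Tag, in which an antibody directs a transposase to cut and tag the DNA around a histone mark, was carried out in MOLM-13, an established human acute myeloid leukemia cell line that carries a KMT2A rearrangement. The question was how histone marks respond to PR-957, an inhibitor of the immunoproteasome subunit PSMB8. Cells received 100 nM PR-957 or the solvent DMSO, for 72 h by the sample labels, although a figure legend of the study gives a shorter time. H3K4me3 marks active or poised promoters, H3K27ac active promoters and enhancers, H3K4me1 mainly enhancers and promoter flanks, and H3K27me3 the regions held by Polycomb. Each mark has 2 DMSO and 2 PR-957 libraries of this 1 cell line, 16 in all, and the 2 IgG samples were not analysed here. The labels number the replicates without saying that they are separate cultures, so the p-values measure only the spread between these libraries.

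The total count was 30070119 to 44591150 per library for H3K4me3, 9885836 to 14165777 for H3K27ac, 15204186 to 30584219 for H3K4me1 and 10032503 to 12047958 for H3K27me3. Both PR-957 libraries of H3K4me3, and both of H3K4me1, were shallower than both DMSO libraries. Of 10 myeloid genes checked against the cell type on the label, 8 had an H3K4me3 interval at their TSS and 9 an H3K27ac interval, against 2 and 1 of 8 genes of other lineages. The myeloid genes without an H3K4me3 interval were PTPRC and MPO, and PTPRC had no interval in any of the 4 marks.

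Promoter sequence is shown first, since PRC2 is placed at CpG-rich DNA and since the 3 genes shown differ widely in their active marks. The 250 bases upstream of the RefSeq start (GRCh38.p14) are printed in the direction of transcription with each CG in capitals. SUZ12 and BMI1 had nearly the same number of CG in the stretch at the canonical start, and KDM6B had the longest H3K4me3 interval of the 10 genes. The stretches lie outside annotated exons.

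SUZ12 (chr17:31936757-31937006, plus strand): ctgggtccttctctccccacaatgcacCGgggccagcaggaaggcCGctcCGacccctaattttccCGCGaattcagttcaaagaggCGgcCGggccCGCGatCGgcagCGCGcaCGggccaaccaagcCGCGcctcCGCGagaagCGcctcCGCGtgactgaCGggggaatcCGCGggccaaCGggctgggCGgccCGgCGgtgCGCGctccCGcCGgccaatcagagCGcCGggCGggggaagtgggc
BMI1 (chr10:22320849-22321098, plus strand): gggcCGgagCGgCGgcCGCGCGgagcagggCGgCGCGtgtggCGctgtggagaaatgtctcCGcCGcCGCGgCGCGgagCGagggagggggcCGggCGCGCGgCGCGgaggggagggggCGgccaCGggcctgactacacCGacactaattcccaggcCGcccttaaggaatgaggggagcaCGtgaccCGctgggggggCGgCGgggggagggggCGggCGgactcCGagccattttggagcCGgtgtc
KDM6B (chr17:7833967-7834216, plus strand): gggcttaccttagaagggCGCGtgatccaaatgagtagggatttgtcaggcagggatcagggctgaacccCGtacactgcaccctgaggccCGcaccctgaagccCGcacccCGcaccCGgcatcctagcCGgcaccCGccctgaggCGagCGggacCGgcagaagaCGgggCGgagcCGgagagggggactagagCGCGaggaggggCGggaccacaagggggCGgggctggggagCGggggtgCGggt

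The SUZ12 stretch holds 34 CG, more than 91.4% of 21613 protein-coding promoters of the same length, the BMI1 stretch 35, more than 92.7%, and the KDM6B stretch 21, more than 61.0%. Over all promoters the median was 17. At the canonical start EZH2 had 38 CG, PHF19 39, EZH1 26, MTF2 25, JARID2 22 and EED 11, so that EED alone of these 9 genes lay below the median. The table of promoters has no entry for CBX2.

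The 10 genes had intervals of the marks found at active promoters, and 9 of them had no H3K27me3 interval near a start. Each mark has 1 interval list for all 4 libraries, so presence is not particular to DMSO. Presence is also not strength. Per kb in DMSO, H3K27ac of EZH1, SUZ12 and CBX2 exceeded only 10.5%, 10.4% and 5.64% of the intervals that represent protein-coding genes. All 10 had an H3K4me3 interval, against 64.0% of all protein-coding genes, and all 10 an H3K27ac interval, against 60.5%. For H3K4me1 it was 7 of 10, against 43.6%, with none listed for EZH1, SUZ12 and BMI1. H3K27me3 was listed for CBX2 alone, 1 of 10, against 19.9% of protein-coding genes. These shares are a description of a list defined by function and were not tested.

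The level of a gene is given as CPM per kb, the TMM-scaled CPM value (read counts set relative to the library's depth) divided by the length of its interval in kb. This allows genes to be set side by side within a mark. In H3K4me3 the order in DMSO ran from JARID2 through KDM6B, PHF19, EZH2, MTF2, EED, BMI1, EZH1 and SUZ12 to CBX2. The DMSO libraries of each neighbouring pair from KDM6B to BMI1 overlapped, so the order within these pairs is not resolved. Further apart, KDM6B, PHF19 and EZH2 lay above EED and BMI1 without overlap, and so did MTF2 above BMI1. JARID2 lay above KDM6B, and EZH1, SUZ12 and CBX2 each below the gene before it, also without overlap. In H3K27ac the order ran from BMI1 through JARID2, EZH2, KDM6B, EED, PHF19, MTF2, EZH1 and SUZ12 to CBX2, and the neighbours that overlapped were JARID2 with EZH2 and EZH1 with SUZ12. Across the 10 genes the levels of the 2 marks had a Spearman correlation of 0.66, as a description over genes that share the same libraries. Over the 7 genes with all 3 marks, the Spearman correlation of H3K4me1 was 0.43 with H3K4me3 and 0.25 with H3K27ac. These values depend on the measure, since Pearson correlations of log2 levels were 0.89 and 0.74, and 0.80 for H3K4me3 with H3K27ac. The H3K4me1 intervals of EZH2, EED and PHF19 lie 9403, 37839 and 11539 bp from the canonical TSS, so different places enter the comparison.

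Few of these genes differed between PR-957 and DMSO. In H3K4me3 0 of 10 had an adjusted p under 0.05 in edgeR's quasi-likelihood test, where 0.226% of all 59229 tested intervals did (0.181% higher and 0.0456% lower in PR-957), and 0 of 10 had an unadjusted p under 0.05. In H3K27ac 0 of 10 passed, against a background of 0.238% of 74510 intervals (0.0644% higher and 0.173% lower), and again 0 of 10 had an unadjusted p under 0.05. In H3K4me1 1 of 7 passed, KDM6B, which was lower in PR-957, where 1.94% of 108158 intervals passed in either direction, 1.24% higher and 0.701% lower. In H3K27me3 the only interval, that of CBX2, did not pass, where 5.92% of 31806 intervals passed, 0.824% higher and 5.09% lower. Over the intervals that represent protein-coding genes alone, 0.701% were higher and 1.45% lower in H3K4me1, and 1.83% and 9.99% in H3K27me3. The direction of the H3K27me3 calls depended on the scaling, with 262 higher and 1620 lower after TMM, 1521 and 698 with library size alone and 801 and 968 with loess offsets, and the H3K4me1 calls went from 1341 higher and 758 lower to 1902 and 465 with library size alone. DESeq2 called 0 of the genes in any mark. It gave no adjusted p, however, to 70784 of 74510 intervals in H3K27ac and 25282 of 31806 in H3K27me3. In H3K4me3 and H3K4me1 these were 4594 of 59229 and 2097 of 108158. Intervals without an adjusted p could not be called, and the DESeq2 values given below were adjusted over the rest.

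The fold changes of H3K4me3 lay between -0.14 and 0.05 on the log2 scale, with 9 of 10 below 0 and a median of -0.06. The median was -0.0010 over all intervals and -0.01 over those that represent protein-coding genes. In H3K27ac the fold changes lay between -0.17 and 0.66 with a median of -0.04, beside 0.0005 over protein-coding genes. In H3K4me1 they lay between -0.48 and 0.55 with a median of -0.06, beside -0.08 over protein-coding genes. The lowest library of one treatment lay above the highest of the other for 3 of 10 genes in H3K4me3, 1 of 10 in H3K27ac, 2 of 7 in H3K4me1 and 0 of 1 in H3K27me3. Over all tested intervals the treatments were separated in this way in 36.6%, 36.9%, 46.7% and 44.2%. The 95% intervals show what size of change these counts leave possible, since the widest reached 0.30 to either side of its estimate in H3K4me3, 0.84 in H3K27ac and 0.90 in H3K4me1.

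**Figure D1:**
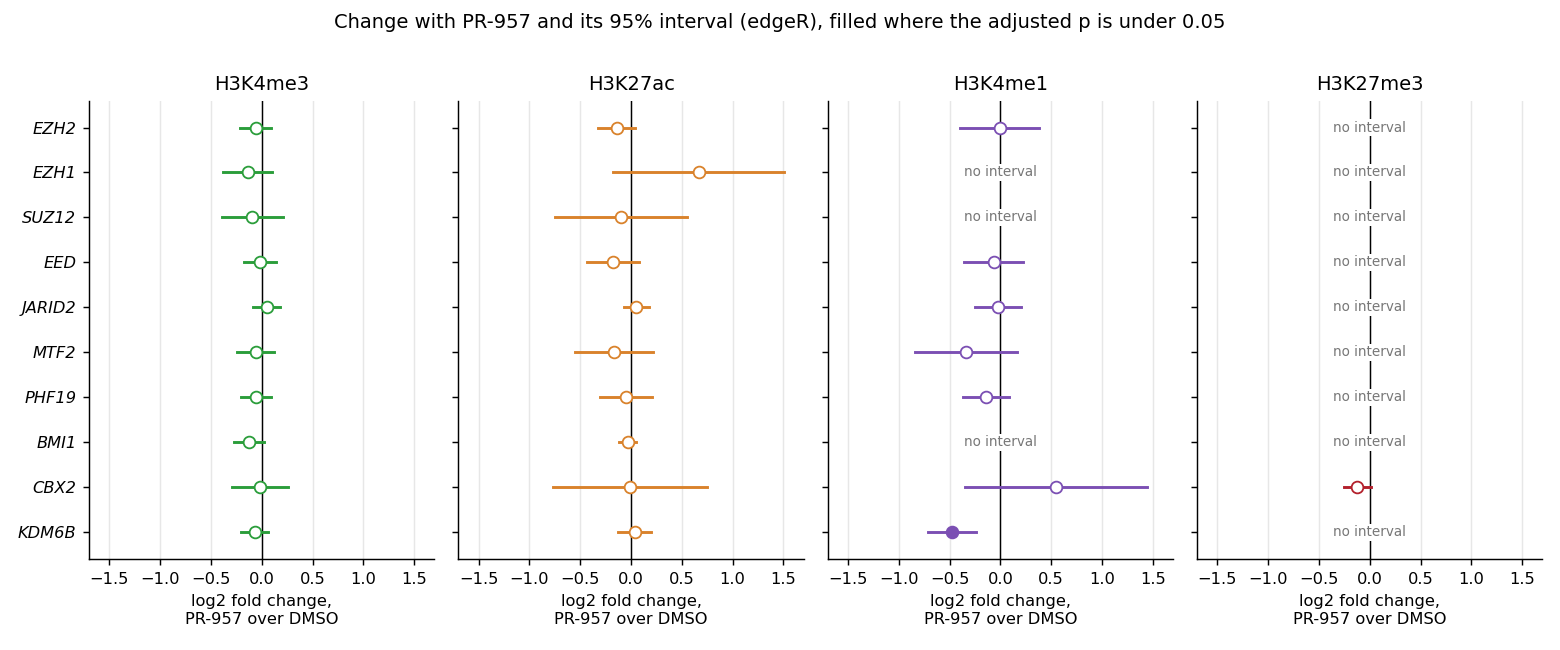
Log2 fold change of PR-957 over DMSO at the interval of each gene, with its 95% interval from edgeR, 2 libraries against 2, with 1 panel per mark. The filled circle is the only value with an adjusted p under 0.05, KDM6B in H3K4me1 at -0.48, and the widest intervals belong to EZH1 in H3K27ac and CBX2 in H3K27ac and H3K4me1.

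EZH2, the main methyltransferase of PRC2, had an H3K4me3 interval of 4233 bp across its canonical TSS (chr7:148882459-148886692). It read 28.4 and 30.0 CPM in the DMSO libraries and 28.2 and 27.9 CPM in PR-957. The treatments did not overlap, yet the fold change was -0.06 (SE 0.08, adjusted p = 0.931 in edgeR). In H3K27ac (chr7:148882580-148885902) EZH2 read 47.5 and 41.5 CPM in DMSO and 37.6 and 43.1 CPM in PR-957, which overlap. At 13.4 ± 1.28 CPM per kb (SD, n = 2) in DMSO this interval was denser than 96.4% of the intervals that represent protein-coding genes. The H3K4me1 interval of EZH2 did not cover the canonical TSS but began 9403 bp inside the gene, near an annotated alternative start, and read 5.22 and 4.60 CPM in DMSO and 5.13 and 4.70 CPM in PR-957.

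EZH1, the second methyltransferase, had weaker and narrower promoter marks than EZH2. Its H3K4me3 interval (chr17:42743571-42745687) of 2116 bp read 9.31 and 9.18 CPM in DMSO and 8.40 and 8.39 CPM in PR-957. Both PR-957 libraries were lower, with a log2 fold change of -0.14 (SE 0.12) and an adjusted p of 0.878 in edgeR. In H3K27ac the interval (chr17:42744077-42745411) held few reads, 22 and 23 counts in DMSO and 25 and 52 counts in PR-957. Scaled for depth it was 1.67 and 2.32 CPM in DMSO and 2.52 and 3.66 CPM in PR-957, without overlap and with the higher values in PR-957. The log2 fold change of 0.66 was the largest of the 10 genes in H3K27ac, but the lower end of its 95% interval was -0.18 and the adjusted p in edgeR was 0.753. No H3K4me1 interval was listed at a start of EZH1, and the nearest H3K27me3 interval lay 14.9 kb from its canonical TSS, the shortest distance among the 9 genes without one at the start.

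SUZ12, the scaffold of PRC2, had low counts in the active marks, and its promoter is CpG-rich. Its H3K4me3 interval (chr17:31936023-31938499) read 6.76 and 6.25 CPM in DMSO and 5.58 and 6.60 CPM in PR-957. The H3K27ac interval (chr17:31935610-31938139) held 50 and 37 counts in DMSO and 38 and 46 counts in PR-957, and 1.49 ± 0.015 CPM per kb (SD, n = 2) in DMSO, denser than only 10.4% of intervals that represent protein-coding genes. The treatments overlapped in both marks. Set beside it, BMI1 with a like number of CG upstream of its canonical start had 19.1 ± 0.32 CPM per kb of H3K27ac in DMSO (SD, n = 2). That BMI1 interval of 12231 bp also overlaps the starts of COMMD3 and COMMD3-BMI1. It holds a second RefSeq start of BMI1 as well, 857 bp from the canonical one, with 54 CG in the 250 bases upstream. The reason for the difference in H3K27ac was not tested.

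EED, which binds trimethylated lysine 27 and with it stimulates the enzyme, had its H3K4me3 interval (chr11:86243599-86247560) at 21.0 and 24.6 CPM in DMSO and 22.98 and 22.09 CPM in PR-957. In H3K27ac (chr11:86243014-86246428) it read 25.1 and 22.7 CPM in DMSO and 17.9 and 24.1 CPM in PR-957. Treatments overlapped in both, and the log2 fold changes were -0.02 (SE 0.08) and -0.17 (SE 0.13). Its H3K4me1 interval (chr11:86202015-86206914) lay 37839 bp upstream of the canonical TSS, at an alternative start, and read 10.2 and 8.86 CPM in DMSO and 9.75 and 8.61 CPM in PR-957, also with overlap.

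Among the accessory subunits JARID2 had the strongest promoter marks. Its H3K4me3 interval (chr6:15242949-15251437) of 8488 bp read 76.1 and 81.8 CPM in DMSO and 77.4 and 85.9 CPM in PR-957, and at 9.30 ± 0.47 CPM per kb in DMSO (SD, n = 2) it was denser than 95.6% of those of protein-coding genes. H3K27ac (chr6:15242951-15249874) read 104 and 89.7 CPM in DMSO and 99.2 and 102 CPM in PR-957. The log2 fold changes of 0.05 in each of the 2 marks had standard errors of 0.07 and 0.06, and the treatments overlapped. The H3K4me1 interval of 20760 bp (chr6:15248008-15268768) began 1939 bp downstream of the TSS and ran into the gene, at 39.7 and 39.4 CPM in DMSO and 36.8 and 40.7 CPM in PR-957.

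JARID2 is also by far the longest of the genes, with 276 kb, and most further intervals of the 10 gene bodies lay in it. Outside the windows around the starts it held 16 loci of H3K27ac and 19 of H3K4me1. None of its 29 H3K27ac intervals passed the threshold or had an unadjusted p under 0.05. None of the 62 H3K4me1 intervals passed in edgeR, and 11 of these overlapping intervals had an unadjusted p under 0.05, a share near the 16.2% of all H3K4me1 intervals.

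MTF2, a Polycomb-like protein that binds CpG-rich DNA, had a short H3K4me3 interval (chr1:93078302-93080712) with 14.9 and 17.9 CPM in DMSO and 15.9 and 15.5 CPM in PR-957, which overlap. In H3K27ac (chr1:93078288-93080588) it read 10.7 and 9.28 CPM in DMSO and 8.05 and 9.71 CPM in PR-957. The H3K4me1 interval that represents it (chr1:93076077-93078054), 1229 bp upstream of the TSS, read 3.86 and 3.01 CPM in DMSO and 2.25 and 3.13 CPM in PR-957, with a log2 fold change of -0.34 (SE 0.26) and an adjusted p of 0.540 in edgeR.

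A further H3K4me1 interval inside MTF2 (chr1:93108931-93110782), at an alternative start 29.6 kb from the canonical TSS, was called higher in PR-957. It held 6 and 4 counts in the DMSO libraries and 12 and 34 counts in PR-957, so the treatments did not overlap but the counts were very low. The log2 fold change was 2.60 (SE 0.69, adjusted p = 0.0195 in edgeR). DESeq2 gave it no adjusted p, and it failed the threshold with loess offsets (adjusted p = 0.187), with GC offsets (0.0883), when either DMSO library was left out (0.244 for replicate 1, 0.203 for replicate 2) and when PR-957 replicate 2 was (0.181).

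PHF19, the Polycomb-like protein that binds methylated lysine 36 of histone H3, read 35.7 and 37.2 CPM in DMSO and 34.1 and 35.7 CPM in PR-957 in H3K4me3 (chr9:120874548-120879667). H3K27ac (chr9:120875391-120879412) was 22.6 and 24.2 CPM in DMSO and 22.8 and 22.4 CPM in PR-957, and both marks overlapped between treatments. Its strongest H3K4me1 interval lay upstream, with 11363 bp (chr9:120888727-120900090) that ended 11539 bp before the canonical TSS. A weaker one over the canonical TSS (chr9:120874571-120880039) held 196 and 162 counts in DMSO and 73 and 133 counts in PR-957, with a log2 fold change of -0.34 and an adjusted p of 0.335 in edgeR. The upstream interval read 34.62 and 34.99 CPM in DMSO and 30.7 and 32.2 CPM in PR-957, lower in both PR-957 libraries, with a log2 fold change of -0.14 (SE 0.11) and an adjusted p of 0.566 in edgeR. At 3.06 ± 0.023 CPM per kb in DMSO (SD, n = 2) it was the densest of the 7 H3K4me1 intervals that represent a gene.

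BMI1, a RING finger subunit of PRC1, had the densest H3K27ac of the genes. The interval of 12231 bp (chr10:22314707-22326938) read 236 and 230.3 CPM in DMSO and 218 and 236 CPM in PR-957, and in DMSO it was denser than 99.0% and longer than 97.6% of those of protein-coding genes. It also overlaps the starts of the neighbouring COMMD3 and of the readthrough gene COMMD3-BMI1, from which its reads cannot be separated. H3K4me3 (chr10:22319421-22326983), shared with the same genes, was 37.9 and 42.6 CPM in DMSO and 35.9 and 37.9 CPM in PR-957. The treatments overlapped in both marks, and the log2 fold changes were -0.03 (SE 0.04) in H3K27ac and -0.12 (SE 0.07) in H3K4me3.

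With the window widened to 5 kb around the starts, 4 overlapping H3K27ac intervals beyond BMI1 were called lower in PR-957. The longest (chr10:22332025-22338962) lies 0.541 kb past the end of the gene and read 211 and 223 CPM in DMSO and 195 and 186 CPM in PR-957. The treatments did not overlap, and the log2 fold change was -0.19 (SE 0.05, adjusted p = 0.0178 in edgeR, 0.0458 in DESeq2). The other 3 had DESeq2 adjusted p-values of 0.0819 to 0.0859, and they also failed with library size alone (0.0634 to 0.0688) and without PR-957 replicate 1 (0.0608 to 0.0620). The call on the longest was lost with loess offsets (adjusted p = 0.203), with offsets for GC content (0.139) and when replicate 2 of DMSO (0.366) or of PR-957 (0.562) was left out. The same widening added an H3K4me1 interval 3.33 kb from the nearest start of EED (chr11:86191418-86197880), with 7.42 and 5.94 CPM in DMSO and 10.7 in each PR-957 library. It was higher in both PR-957 libraries with a log2 fold change of 0.67 (SE 0.15, adjusted p = 0.00478 in edgeR), and was not called by DESeq2 (0.352), with GC offsets (0.0752) or without DMSO replicate 2 (0.157).

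CBX2, the PRC1 chromodomain subunit, stood apart from the other 9 genes as the one with H3K27me3 at its start. It also had the lowest level of the 10 in H3K4me3 and H3K27ac, and the lowest of the 7 genes with an interval in H3K4me1. Its H3K27me3 interval of 20780 bp (chr17:79760788-79781568) extends mainly upstream of the TSS and was denser than 84.4% and longer than 87.8% of the H3K27me3 intervals that represent protein-coding genes. Together with its H3K4me3 interval this made CBX2 the only one of the 10 with both marks, a combination found in 11.6% of protein-coding genes. Counts from a population of cells do not show whether both marks sit on the same chromosomes.

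The H3K27me3 interval of CBX2 held 1140 and 1316 counts in DMSO and 1260 and 1302 counts in PR-957. Scaled, this was 121 and 116 CPM in DMSO and 117 and 101 CPM in PR-957, so that 1 PR-957 library lay between the DMSO libraries and the other below both. The log2 fold change was -0.12 (SE 0.07, 95% interval -0.26 to 0.0094, adjusted p = 0.377 in edgeR). Without PR-957 replicate 1 it was -0.25 with an adjusted p of 0.0383, and with library size in place of TMM scaling it was 0.04, a change of scale that moved the median over all H3K27me3 intervals from 0.016 to 0.18.

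In the active marks CBX2 was low, and in H3K27ac and H3K4me1 it was near the floor of the listed intervals. H3K4me3 (chr17:79776878-79780191) read 7.11 and 7.57 CPM in DMSO and 6.63 and 7.86 CPM in PR-957. H3K27ac (chr17:79777465-79779959) held 38 and 29 counts in DMSO and 21 and 50 counts in PR-957, and H3K4me1 (chr17:79778127-79780221) 32 and 20 counts in DMSO and 16 and 40 counts in PR-957. The treatments overlapped in all 3 marks. In DMSO its density exceeded that of only 17.4% of protein-coding genes' intervals in H3K4me3, 5.64% in H3K27ac and 2.55% in H3K4me1.

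CBX2 has its paralog CBX8 next to it, which starts 18.9 kb away and is transcribed in the opposite direction. CBX8 also had H3K27me3 at its start, and more of it than CBX2. It was at 475 and 460 CPM in DMSO and 458 and 433 CPM in PR-957, so that both PR-957 libraries lay below both DMSO libraries. The log2 fold change of -0.07 (SE 0.05) did not pass the threshold in edgeR (adjusted p = 0.545). Its direction depended on the scaling, since the interval was called higher in PR-957 with loess offsets (0.12, adjusted p = 0.0209) and called lower with GC offsets (-0.15, adjusted p = 0.0296), while library size alone gave 0.09 (adjusted p = 0.141).

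For the 9 other genes the nearest H3K27me3 interval was found at a distance from the canonical TSS. After EZH1 it was 56.5 kb for KDM6B, 113 kb for MTF2, 114 kb for BMI1, 253 kb for EZH2, 323 kb for SUZ12, 421 kb for EED, 592 kb for PHF19 and 991 kb for JARID2. Those nearest to KDM6B, EZH2, EED, PHF19 and JARID2 held at most 20 counts per library, and that nearest to MTF2 20 to 26. The interval nearest to EZH1 held 17 to 44 counts and that nearest to BMI1 63 to 76. The one nearest to SUZ12 was stronger, with 510 to 730 counts. It read 54.0 and 53.3 CPM in DMSO and 54.2 and 56.5 CPM in PR-957. None of the intervals that entered the test was called, and that nearest to PHF19 had too few counts to be tested.

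KDM6B, the demethylase that removes methyl groups from lysine 27, was the only gene of the 10 called at its representing interval. Its H3K4me1 interval of 10808 bp (chr17:7832406-7843214) covers the canonical TSS and much of the gene, and held 553 and 532 counts in DMSO and 248 and 313 counts in PR-957. After scaling this was 18.7 and 22.2 CPM in DMSO and 15.9 and 13.6 CPM in PR-957, with both PR-957 libraries below both DMSO libraries. The log2 fold change was -0.48 (SE 0.12, 95% interval -0.72 to -0.24, adjusted p = 0.0136 in edgeR), and it was below 0 under every alternative tried.

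The call on KDM6B depended on the libraries and on the tool. It was lost when replicate 2 of DMSO (log2 fold change -0.35, adjusted p = 0.231) or of PR-957 (-0.36, adjusted p = 0.257) was left out, and in DESeq2 (-0.48, adjusted p = 0.448). The interval is rich in G and C, with 58.2%, above 92.2% of tested H3K4me1 intervals. Among all H3K4me1 intervals the median log2 fold change was -0.14 in the tenth with the most GC and 0.28 in the tenth with the least. With offsets that remove this trend the value was -0.35 and the adjusted p 0.142.

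The 5 H3K4me1 intervals listed at KDM6B overlap in part and had log2 fold changes between -0.48 and -0.44. The 2 that span its canonical start and the starts at 5.69 and 5.77 kb inside the gene, but not those at 9.99 and 10.7 kb, passed the threshold, the second (chr17:7832725-7842793) at -0.46 with an adjusted p of 0.0214 in edgeR. The shortest, at the canonical start alone, had -0.47 with an adjusted p of 0.420. Since overlapping intervals share reads, they are not separate observations.

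The other marks of KDM6B moved less. Its H3K4me3 interval of 13548 bp (chr17:7832771-7846319) was longer than 98.6% of those of protein-coding genes and read 99.2 and 96.5 CPM in DMSO and 91.54 and 95.03 CPM in PR-957. These do not overlap, but the log2 fold change was -0.07 (SE 0.07, adjusted p = 0.890 in edgeR). Its strongest H3K27ac interval (chr17:7840912-7846743) began 6695 bp downstream of the canonical TSS, holds the starts at 9.99 and 10.7 kb, and read 49.6 and 53.2 CPM in DMSO and 52.4 and 52.6 CPM in PR-957, with overlap and a log2 fold change of 0.03 (SE 0.08). The H3K27ac intervals over the canonical start had log2 fold changes between -0.14 and -0.10, none of which passed.

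Counted over every distinct interval in the windows of the 10 genes, 0 of 52 were called in H3K4me3, 0 of 52 in H3K27ac, 3 of 38 in H3K4me1 and 0 of 4 in H3K27me3. The 3 are the 2 of KDM6B, which overlap and share reads, and that of MTF2, with very low counts. Over all tested intervals of these marks, in the same order, 0.226%, 0.238%, 1.94% and 5.92% were called. Inside the gene bodies but outside the windows, edgeR called 0 of 5 intervals in H3K4me3, 0 of 29 in H3K27ac, 0 of 69 in H3K4me1 and 0 of 4 in H3K27me3, where 2, 0, 11 and 0 had an unadjusted p under 0.05. Over all intervals of the 4 marks this share was 7.52%, 8.01%, 16.2% and 15.6%.

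A further 37 genes of the same system, subunits of PRC2, PRC1 and the deubiquitinase PR-DUB with the demethylase KDM6A and the acetyltransferases CREBBP and EP300, were read in the same way. For H3K4me3 31 of them had an interval and 0 passed in edgeR, with 1 at an unadjusted p under 0.05, the smallest being that of the PRC1 subunit PHC3 (log2 fold change -0.20, adjusted p = 0.535). For H3K27ac it was 0 of 28, with 4 at an unadjusted p under 0.05, the smallest being that of CREBBP (0.34, adjusted p = 0.392). For H3K4me1 it was 0 of 16, with 3 at an unadjusted p under 0.05, the smallest being that of CBX7 (-0.49, adjusted p = 0.0814). Among the intervals that represent protein-coding genes, 8.04%, 9.56% and 16.9% had an unadjusted p under 0.05 in these marks. The median log2 fold changes of 0.01, 0.02 and -0.11 lay beside medians over all protein-coding genes of -0.01, 0.0005 and -0.08.

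An H3K27me3 interval was listed for 9 of the 37, which is 24.3% against 19.9% of protein-coding genes. Among them were the PRC1 genes PCGF1, PCGF5, PHC1, CBX6, CBX7, CBX8 and AUTS2 and the PR-DUB gene ASXL3. That of PCGF5 lay 55025 bp from its canonical TSS. Those of PCGF5, PHC1, CBX7 and ASXL3 held only 24 to 53 counts per DMSO library. None of the 7 further PRC2 genes had it, as none of the 7 PRC2 genes among the 10 did. PHF1 and EPOP of the further PRC2 genes had no interval in any of the 4 marks. For them a lack of H3K27me3 cannot be told apart from a locus that the interval lists leave out. Among the H3K27me3 intervals that represent protein-coding genes, 1.83% were called higher and 9.99% lower in PR-957, so 1 call among 9 is near that share. The 1 that passed was that of PCGF1, a RING finger subunit of variant PRC1. Its interval (chr2:74509407-74521005) starts 1712 bp from its canonical TSS and is shared with the homeobox gene TLX2. It read 85.1 and 84.9 CPM in DMSO and 70.3 and 69.5 CPM in PR-957, lower in both PR-957 libraries, with a log2 fold change of -0.28 (SE 0.08, adjusted p = 0.00681 in edgeR, 0.0343 in DESeq2). The call was lost with library size scaling (adjusted p = 0.386), with loess offsets (0.123), without DMSO replicate 1 (0.0921) and without DMSO replicate 2 (0.101).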

How the data were processed

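Cut&Tag libraries of MOLM-13 cells for 4 histone marks were analysed, with 2 libraries per mark and treatment grouped by the sample labels. The authors used Bowtie2 and hg38 for alignment, MACS2 or SEACR for peaks, and deposited whole-number counts per interval, without normalization, on 1 interval list per mark. The submitters' processing notes name Trimmomatic 0.39, Bowtie2 2.2.5, Picard 2.27.1, SAMtools 1.7, SEACR 1.3 and deepTools 3.5.1. The counter, its unit (reads or fragments) and its treatment of duplicates are not given in the sources used here. Intervals of a list often overlap, so reads can be counted in several of them. Coordinates are those of the files.

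Within each mark, intervals were kept by filterByExpr (minimum count 10), scaled by TMM, and tested with edgeR 4.0.16 (quasi-likelihood, R 4.3.3), with Benjamini-Hochberg adjustment over all intervals tested and a threshold of 0.05. The standard error is the absolute log2 fold change divided by the square root of F. With 2 libraries against 2 an exact permutation test cannot go below 0.333. The test was checked on simulated counts. Within 2 kb of a GENCODE release 44 TSS, the interval of highest mean count stands for the gene. Named are the 10 genes in all 4 marks, other intervals of their windows that passed, and of the 37 further genes those that passed or else the one with the smallest p per mark. The intervals of the 5 kb window and CBX8 were named after their values were seen. The 10 genes and the lists of 37 further genes and 18 lineage markers were chosen with earlier results of these data known. Replicate libraries differed by more than sampling noise.

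Alternatives were DESeq2 1.42.0, scaling by library size only, by median-of-ratios factors or by cyclic loess offsets (limma 3.58.1), a minimum mean count of 50, no filter, chromosomes 1 to 22, windows of 1 and 5 kb, the shortest interval, the replicate number as a block and leaving out each library. Offsets that remove each library's trend on GC content were added after seeing the data. Promoter sequences are from RefSeq, with 14 entries for 9 of the 10 genes. The values of 1 of the 37 further genes are not reported here on their own.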

Additional observations from a re-analysis of the deposited data

How the results depend on the processing

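In H3K4me3 and H3K27ac no alternative called any of the 10 genes at its representing interval. In H3K4me1 the count of 1 became 0 with DESeq2, with GC offsets (chosen after seeing the data) and with the shortest interval, 2 with a window of 1 kb, where MTF2 was read at its intronic interval and its log2 fold change turned from -0.34 to 2.60, and 0 to 1 without single libraries. Over all H3K4me1 intervals of the windows the count of 3 became 1 with loess offsets, 0 with DESeq2, 0 with GC offsets and 0 to 4 without single libraries. In H3K27me3 leaving out single libraries gave 0 to 1 of the genes and 0 to 4 of the window intervals, all 4 without PR-957 replicate 1. A window of 5 kb raised the H3K27ac interval count to 4. Among the further Polycomb genes the H3K27me3 count of 1 became 0 with library size only, 0 with a window of 1 kb, 2 with GC offsets and 0 to 1 without single libraries. The causes were not tested, except that a window changes which intervals are read. Samples sharing a replicate number share no more than that number by the labels, and with 2 pairs their deviations correlated at -0.0069 in H3K27me3, 0.0068 in H3K4me1 and 0.17 in H3K4me3. With the replicate number as a block KDM6B kept -0.48 in H3K4me1 (edgeR adjusted p = 0.0232), and the counts of called genes and intervals were 1 and 3 as before. Where a library was left out, the lone sample of its group was assumed to vary like the other group. Counts under about 50 per library, as for H3K27ac at EZH1, SUZ12 and CBX2, gave the widest intervals.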
